A study of Schizosaccharomyces pombe with 8 samples.

Results

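The table of tag densities for wild-type fission yeast held 28 annotated pseudogenes among 9111 distinct features, chosen here because the table gives their type as pseudogene. Each was listed on 2 lines with the same values, so that 56 lines stood for 28 genomic positions, and each was counted once. Of these, 13 pseudogenes lay within 100 kb of an end of chromosome I or II, and the other 15 lay elsewhere, 9 of them on chromosome III. All 28 are annotated as pseudogenes in RefSeq.

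ChIP-seq recovers the cross-linked DNA bound by an antibody, so that the tags on a feature follow the amount of a histone or of a modified histone there. The cells were exponentially growing wild-type Schizosaccharomyces pombe, untreated. The labels name strain YAM2394, which carries the marker alleles ade6-M210, ura4-D18 and leu1-32, and the study names YAM2400, also wild type, in its account of the H3K14ac data. Antibodies were against histone H3, H3 acetylated on lysine 14 (H3K14ac), and H4 acetylated on several lysines of its tail (H4ac), each in 2 libraries from biological replicates. Input, with 2 samples by the labels, was not analysed here. The question asked of these libraries was whether pseudogenes near chromosome ends carried other levels of H3 and acetylation than pseudogenes elsewhere.

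A pseudogene is a relative of a gene whose reading frame is broken by frameshifts, deletions or a lost start codon. Acetylation of H3 and H4 tails accompanies open, transcribed chromatin. In S. pombe the chromatin next to telomeres is packed as heterochromatin, in which histone deacetylases keep the tails unacetylated, and wider subtelomeric domains hold many repeated, weakly expressed genes. The wtf genes, 5 of which are pseudogenes here, are a repeated family of meiotic drive elements, which includes drivers that kill spores not inheriting them and suppressors of that drive.

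Many of the pseudogenes nearest the ends are copies of each other, and the sequences show where a broken copy departs from its working relative. SPAC212.09c (chrI:7619-9274) and SPBCPT2R1.07c (chrII:4523274-4524970) both resemble mae2, the malic enzyme gene SPCC794.12c on chromosome III, at 90.8% and 90.6% identity. The pair differed from each other at 1 of 1657 aligned positions, a change in the length of a run of C. The windows below are coding-strand sequence from the RefSeq ASM294v3 genome at chrI:7681-7750, chrII:4524798-4524868 and chrIII:277039-277109, and the capitals mark that run.
SPAC212.09c: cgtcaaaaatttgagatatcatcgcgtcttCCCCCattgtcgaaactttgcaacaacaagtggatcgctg
SPBCPT2R1.07c: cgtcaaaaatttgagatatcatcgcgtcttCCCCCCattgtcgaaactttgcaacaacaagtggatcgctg
mae2: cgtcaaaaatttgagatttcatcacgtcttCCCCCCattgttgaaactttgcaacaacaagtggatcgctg
SPAC212.09c had 5 C in the run, against 6 in SPBCPT2R1.07c and in mae2. A second length difference, at chrI:8022-8091, chrII:4524457-4524526 and chrIII:276697-276767, was shared by both pseudogenes, which had 1 G where mae2 had 2, in capitals here.
SPAC212.09c: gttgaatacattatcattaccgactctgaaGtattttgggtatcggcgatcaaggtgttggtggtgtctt
SPBCPT2R1.07c: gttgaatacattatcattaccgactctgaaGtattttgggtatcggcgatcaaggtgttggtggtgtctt
mae2: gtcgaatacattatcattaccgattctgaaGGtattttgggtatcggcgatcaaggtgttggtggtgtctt
A pair of shorter remnants, SPAC212.05c and SPBCPT2R1.05c, shared 162 identical bases at chrI:20824-20985 and chrII:4515203-4515364, shown because no 50-base word of either remnant is found only once in the genome.
SPAC212.05c and SPBCPT2R1.05c: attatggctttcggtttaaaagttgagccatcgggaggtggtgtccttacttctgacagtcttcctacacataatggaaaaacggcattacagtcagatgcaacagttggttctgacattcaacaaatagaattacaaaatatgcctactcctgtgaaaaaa

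These copies set a limit on the values near the ends. The share of 50-base words found once in the genome, 50 bases being the read length, was under 10% in 7 of the 13 near pseudogenes and 100% in the other 6. The methods describe unique mapping, yet SPAC212.05c, at 0% unique words, held 455 and 443 H3 tags. Tags on the 7 repeated pseudogenes therefore cannot be assigned to a particular copy, and they are described with that limit.

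H3 was denser, and both acetylated histones sparser, over the near pseudogenes than over the rest. Median H3 density was 2.18 and 2.31 tags per nt in the 2 libraries for the near group, against 1.55 and 1.55 for the rest. Median H3K14ac density was 0.520 and 0.502 tags per nt near the ends and 1.51 and 1.47 elsewhere. Median H4ac density was 0.730 and 0.633 tags per nt near the ends and 1.63 and 1.61 elsewhere. The groups' medians thus differed the same way in both libraries of every antibody, while the ranges of single pseudogenes overlapped. For H3, 7 of 13 near pseudogenes lay above all 15 others, and these were the 7 with repeated sequence. The highest of the others was SPCP20C8.03, and 99.1% of all features lay below it. For H4ac density, all 13 near pseudogenes lay below the median of the rest, which was 1.64 tags per nt against 1.31 over all features.

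**Figure D1:**
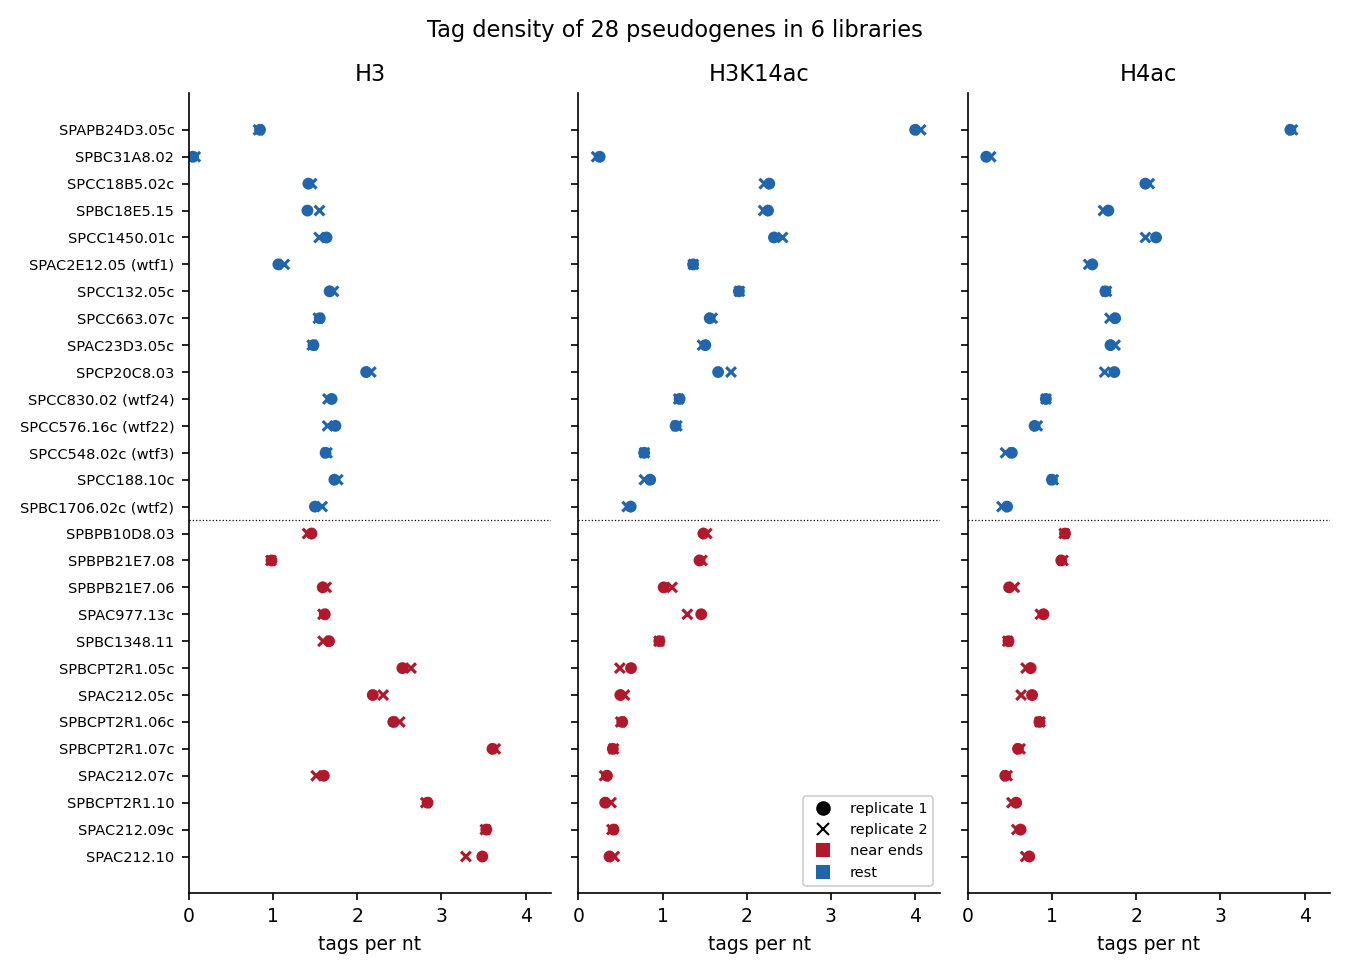
Tag density (tags per nt, x axis from 0) of each of the 28 pseudogenes in the 2 libraries (circle, replicate 1; cross, replicate 2) of H3, H3K14ac and H4ac. Near pseudogenes (red) are ordered by distance from the end, nearest at the bottom, and the rest (blue) by H3K14ac/H3, highest at the top. The replicates nearly coincide, the bottom 8 near pseudogenes have H3K14ac at or below 0.625 tags per nt, and SPAPB24D3.05c is the highest for H3K14ac and H4ac.

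Acetylation per H3 is given below as the log2 ratio of densities. The deposited libraries had nearly equal median densities over genes (1.23 to 1.24 tags per nt), so a ratio of 0 marks about the level of a typical gene and not an acetylated share. Median log2 H3K14ac/H3 was −2.20 for the near pseudogenes and 0.03 for the rest, against 0.26 over all features tested. The difference between the groups, near minus rest, was −2.14 in replicate 1 and −2.30 in replicate 2. For H4ac/H3 the medians were −1.75 near the ends and 0.15 elsewhere, against 0.24 over all features, and the difference was −1.92 and −1.78 in the replicates. These differences were many times larger than the gap between the replicates. Of the 13 near pseudogenes, 8 had a lower H3K14ac/H3 than any of the 15 others, and 5 had a lower H4ac/H3 than any of the others. The lowest of the others for both was SPBC1706.02c, and of all features 3.83% lay below it for H3K14ac/H3 and 1.02% for H4ac/H3.

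The size of the difference changed when pseudogenes with repeated sequence were left out. Leaving them out also removed 7 of the 8 near pseudogenes within 25 kb of an end, and the 5 wtf pseudogenes of the rest. Distance and repeated sequence therefore cannot be told apart in this change. Among pseudogenes with at least 80% unique words, the median log2 H3K14ac/H3 of 6 near pseudogenes was −0.41 and the difference from the rest shrank from −2.23 to −0.78, while that of H4ac/H3 went from −1.90 to −1.42. The H3 density difference went from 0.54 to 0.06 on the log2 scale, since H3 was densest over the 7 repeated pseudogenes. It also went to 0.075 when the 2 pseudogenes under 200 nt, both near and repeated, were left out.

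In limma fits over 9109 features with Benjamini-Hochberg adjustment, 17 pseudogenes were lower for H3K14ac than for H3 and 9 were higher, at an adjusted p under 0.05. By group, 11 of 13 near pseudogenes and 6 of 15 others were lower, where 36.4% of all features were called lower. The higher calls were 2 of 13 near pseudogenes and 7 of 15 others, where 56.3% of all features were called higher. For H4ac/H3, 12 of 13 near pseudogenes and 6 of 15 others were lower (36.6% of all features), and 1 of 13 and 8 of 15 were higher (56.1%). With a change of at least 1.5-fold required as well, 10 near pseudogenes and 3 others were lower for H3K14ac/H3 (18.5% of all features), and 11 and 5 for H4ac/H3 (17.4%). Higher calls of that size were made for 4 others (38.5% of all features) in H3K14ac/H3 and 2 others (36.2%) in H4ac/H3, and for no near pseudogene. Without the fold requirement the share of the rest that was lower was close to that of all features, and with it the rest had a larger share lower for H4ac/H3 (33.3% against 17.4%). The share of the near group that was lower exceeded that of all features under each rule. However, all 7 repeated near pseudogenes were called lower for both ratios, and their tags cannot be assigned to a particular copy. Of the 6 near pseudogenes on unique sequence, 4 were lower for H3K14ac/H3 and 5 for H4ac/H3, while 2 and 1 were higher. With 1.5-fold required, 3 and 4 of these 6 were lower.

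The same pattern held for the protein-coding genes of the same windows. Of 123 such genes, 102 were lower for H3K14ac/H3 and 101 for H4ac/H3, with medians of −0.79 and −1.41. The 4994 genes elsewhere had medians of 0.02 and 0.02. The near pseudogenes were lower than these 123 genes for H3K14ac/H3, with medians of −2.20 and −0.79. However, 8 of the 13 pseudogenes lay within 25 kb of an end, against 27 of the 123 genes. Set against the mean of the nearest protein-coding gene on each side, 6 near pseudogenes were above and 7 below, with a median difference of −0.14. Among features with at least 80% unique words, the 6 pseudogenes had a median of −0.41 and 64 genes one of −0.69.

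Within the 100 kb the pseudogenes fell into an outer set of 8, all within 25 kb of an end, and an inner set of 5 between 33.2 and 87.7 kb, a division made after their values were seen. No pseudogene lay close to the 100 kb line. The last inside it was SPBPB10D8.03, at 87.7 kb, and the nearest of the rest on chromosomes I and II was SPAC2E12.05, at 512.9 kb.

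The outer 8 had the lowest H3K14ac/H3 of all 28 pseudogenes, while their H4ac/H3 overlapped that of other pseudogenes. Their H3 density ran from 1.56 to 3.62 tags per nt, their H3K14ac density from 0.325 to 0.559 and their H4ac density from 0.455 to 0.854. Their log2 H3K14ac/H3 ran from −3.10 to −2.08 and their log2 H4ac/H3 from −2.56 to −1.52, and all 8 were called lower for both. The 27 protein-coding genes within 25 kb of an end were also all called lower for both, with medians of −1.28 and −1.63. On the left arm of chromosome I and the right arm of chromosome II, where all 8 outer pseudogenes lay, 8 of these genes had medians of −2.30 and −1.77, and the 19 on the other arms −0.79 and −1.47.

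The malic enzyme pseudogene SPBCPT2R1.07c was the lowest of all 28 for both ratios. It held 3.61 and 3.64 tags per nt of H3 in the 2 libraries, 0.409 and 0.418 of H3K14ac, and 0.596 and 0.620 of H4ac. H3K14ac was thus 8.58-fold below H3 (log2 −3.10 ± 0.03, SE, n = 2, limma adjusted p = 8.76e-09). Its copy SPAC212.09c had 3.53 and 3.52 tags per nt of H3 and 0.417 and 0.399 of H3K14ac, a log2 ratio of −3.08 ± 0.04 (SE, n = 2). The values of this pair were alike, and by their sequence the tags of either could come from the other.

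Another pair of copies resembles mae1, which encodes the transporter that takes up malate. SPAC212.10 (chrI:5726-6331) had 3.49 and 3.29 tags per nt of H3, 0.370 and 0.426 of H3K14ac, and 0.730 and 0.687 of H4ac, for a log2 H3K14ac/H3 of −3.06. SPBCPT2R1.10 (chrII:4526225-4526884) had 2.84 and 2.81 of H3, 0.318 and 0.388 of H3K14ac, and 0.574 and 0.524 of H4ac, for −2.97. So the 4 lowest pseudogenes for H3K14ac/H3 were 2 pairs of near-identical copies, relatives of mae1 and mae2. The tags of a pair cannot be assigned to either copy, so the 4 are not separate observations.

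SPAC212.07c (chrI:13665-14555) is the outer pseudogene whose sequence is wholly unique, so its tags can be placed. It had 1.60 and 1.51 tags per nt of H3, 0.339 and 0.311 of H3K14ac, and 0.445 and 0.466 of H4ac. Both libraries of each acetylated histone were below both libraries of H3, by 4.68-fold for H3K14ac (log2 −2.23 ± 0.06, SE, n = 2, limma adjusted p = 5.6e-08) and 3.37-fold for H4ac (−1.75 ± 0.06, adjusted p = 1.84e-07). Only 0.46% of the features fitted had a lower H3K14ac/H3. The tlh1 and tlh2 genes, RecQ-type helicase genes nearest the ends, had log2 H3K14ac/H3 of −3.31 and −3.27, and act1, the actin gene, one of −0.27. Only 0.89% and 6.75% of the 50-base words of tlh1 and tlh2 are unique, so their tags cannot be assigned to a particular copy.

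**Figure D2:**
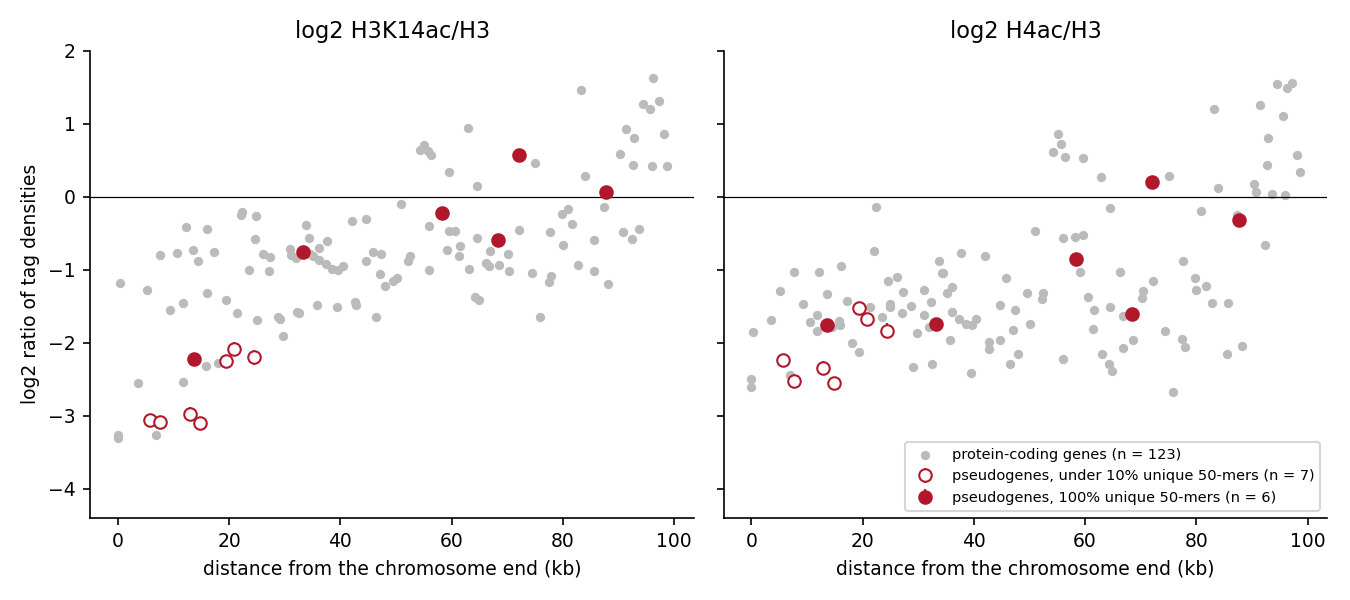
log2 H3K14ac/H3 (left) and log2 H4ac/H3 (right) against the distance from the chromosome end in kb, for the 13 near pseudogenes (red, bars ± SE from the fit, 2 libraries per antibody) and 123 protein-coding genes (grey). Open circles mark the 7 pseudogenes with under 10% unique 50-base words. The 8 pseudogenes within 25 kb lie at or below −2.08 for H3K14ac/H3, and the 5 farther in lie between −0.76 and 0.57.

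The inner 5, all on unique sequence, all had a higher H3K14ac/H3 than the outer 8, but SPBC1348.11 and SPBPB21E7.06 were within the outer range for H4ac/H3. SPBPB21E7.08 (chrII:72081-73390) had 0.981 and 0.974 tags per nt of H3, 1.44 and 1.47 of H3K14ac, and 1.11 and 1.13 of H4ac, and it was the near pseudogene called higher for both ratios (log2 0.57 ± 0.03 and 0.19 ± 0.03, SE, n = 2). SPBPB10D8.03, a transporter pseudogene, had 1.46 and 1.41 of H3 and 1.49 and 1.53 of H3K14ac, a log2 ratio of 0.07 called higher at adjusted p = 0.0484 in limma but not in 8 of the alternative fits, with an adjusted p of 0.219 without H3 replicate 2 and 0.213 without H3K14ac replicate 2. For H4ac/H3, SPBPB10D8.03 was called lower (log2 −0.31, limma adjusted p = 2.73e-05), with 1.15 and 1.14 tags per nt of H4ac. The remaining 3 were called lower for both ratios.

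SPBC1348.11, a membrane transporter pseudogene at 33.2 kb, had 1.66 and 1.59 tags per nt of H3, 0.962 and 0.958 of H3K14ac, and 0.483 and 0.474 of H4ac. H4ac fell 3.36-fold below H3 and H3K14ac 1.69-fold below it. SPBPB21E7.06, at 68.4 kb, was much the same, at −0.60 for log2 H3K14ac/H3 against −1.61 for H4ac/H3. SPAC977.13c, a hydrolase pseudogene with 4 frameshifts, had −0.22 and −0.86.

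The difference between the acetylations had opposite signs in the outer and inner sets. In all 8 outer pseudogenes H3K14ac was lower than H4ac (log2 −0.82 to −0.37), and in all 5 inner ones it was higher (0.37 to 1.01), each past the threshold in the fit, though SPBCPT2R1.05c was not without H4ac replicate 1 (limma adjusted p = 0.0949). Over all features, 31.7% were called lower and 34.7% higher for H3K14ac/H4ac. At least 1.5-fold differences were found in 3 outer pseudogenes, in which H3K14ac was lower (SPAC212.10, SPBCPT2R1.06c and SPBCPT2R1.10), and in 3 inner ones, in which it was higher (SPAC977.13c, SPBC1348.11 and SPBPB21E7.06), against 2.74% and 3.14% of all features. The largest was SPBPB21E7.06, with 1.01 and 1.11 tags per nt of H3K14ac and 0.490 and 0.552 of H4ac, a 2.02-fold difference. Of the 123 protein-coding genes of the windows, 90 were higher for H3K14ac than H4ac and 17 were lower. Of the 64 genes there with at least 80% unique words, 55 were higher for H3K14ac than H4ac and 2 were lower. All 8 outer pseudogenes lay on the left arm of chromosome I and the right arm of chromosome II, and 4 of the 5 inner ones on the left arm of chromosome II. All outer ones except SPAC212.07c, which was at −0.48, had under 10% unique words, and all 5 inner ones had 100%. So distance, arm and repeated sequence cannot be told apart in the pseudogenes. The genes within 25 kb differed by arm: 6 of 8 on I left and II right were lower for H3K14ac than H4ac, and 13 of 19 on I right and II left were higher, with 2 lower.

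**Figure D3:**
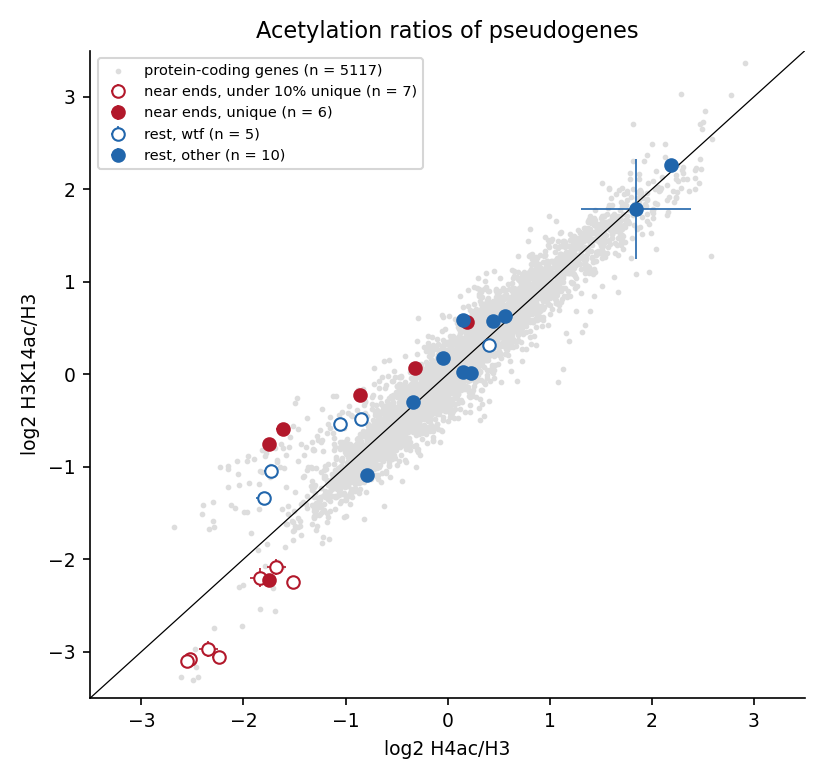
log2 H3K14ac/H3 against log2 H4ac/H3 for the 28 pseudogenes (bars ± SE from the fit, 2 libraries per antibody) over 5117 protein-coding genes (grey), with a line where both are equal. Near pseudogenes (red) of the outer set lie below the line and those of the inner set above it. 4 of the 5 wtf pseudogenes (open blue) also lie above it.

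Of the 15 pseudogenes elsewhere, 5 belong to the wtf family, and 4 of these were low in acetylation. wtf2 (SPBC1706.02c, chrII:593188-593575) had 1.496 and 1.58 tags per nt of H3, 0.621 and 0.580 of H3K14ac, and 0.466 and 0.405 of H4ac. wtf3 (SPCC548.02c) had 1.62 and 1.64 of H3, 0.781 and 0.785 of H3K14ac, and 0.523 and 0.447 of H4ac. These were the lowest of the rest for H4ac/H3, at −1.80 and −1.73, in the range of the outer pseudogenes, but their sequences are 38.6% and 42.2% unique. wtf22 and wtf24 had log2 H4ac/H3 of −1.06 and −0.84. wtf1 was the exception, with a log2 H3K14ac/H3 of 0.31 and, for H4ac/H3, 0.41, both called higher.

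In 4 of the 5 wtf pseudogenes H3K14ac exceeded H4ac, by at least 1.5-fold only in wtf3 (1.61-fold). The 20 wtf copies listed as genes had a median log2 H4ac/H3 of −0.68, and 19 of them also had more H3K14ac than H4ac. Without the wtf family the 10 other pseudogenes of the rest had a median H3K14ac/H3 of 0.37 and a median H4ac/H3 of 0.19, both log2.

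Among those 10, SPCC188.10c was the lowest. It had 1.73 and 1.77 tags per nt of H3, 0.853 and 0.784 of H3K14ac, and 1.00 and 1.01 of H4ac, for log2 ratios of −1.09 ± 0.04 and −0.79 ± 0.04 (SE, n = 2). SPCP20C8.03, 32.6 kb from an end of chromosome III and so outside the windows, had −0.30 and −0.34. It was therefore not as low as the outer pseudogenes of chromosomes I and II, all of which lay closer to their ends. Both of its ratios were within the ranges of the inner 5, −0.76 to 0.57 for H3K14ac/H3 and −1.75 to 0.19 for H4ac/H3.

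The highest was SPAPB24D3.05c (chrI:2954983-2955350), a ring cleavage dioxygenase pseudogene with a frameshift and no start codon. It held 0.844 and 0.826 tags per nt of H3, 4.001 and 4.07 of H3K14ac, and 3.83 and 3.86 of H4ac. Acetylation exceeded H3 4.79-fold for H3K14ac and 4.56-fold for H4ac (log2 2.26 ± 0.03 and 2.19 ± 0.03, SE, n = 2, limma adjusted p = 9.57e-09 and 1.05e-08), above 97.2% and 96.5% of all features. All of its 368 bases are covered by the antisense noncoding RNA gene SPNCRNA.864, whose own ratios were 1.56 and 1.47, and the flanking genes mag1 and SPAPB24D3.06c were at 0.54 and 0.91 for H3K14ac/H3.

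SPBC31A8.02 stood apart for few tags with every antibody. It was the lowest of all 28 pseudogenes in density of H3, H3K14ac and H4ac, for which the rest had medians of 1.55, 1.49 and 1.64 tags per nt. It held 0.049 and 0.075 tags per nt of H3, which is 19 and 27 tags, 0.253 and 0.216 of H3K14ac and 0.219 and 0.272 of H4ac. Its log2 ratios were 1.79 ± 0.54 and 1.85 ± 0.54 (SE, n = 2, limma adjusted p = 0.0162 and 0.0141), with the widest errors of any pseudogene, and the calls were lost without a library: the adjusted p for H3K14ac/H3 was 0.102 without H3K14ac replicate 1 and 0.0592 without replicate 2, and for H4ac/H3 0.0946 without H4ac replicate 2. Only 0.04% of protein-coding genes had a lower H3 density. Its sequence is unique and rich in C and T on its coding strand, 72.2% of its bases, above 99.97% of the features examined. The first 120 bases, chrII:1268093-1268212, are shown with C and T in capitals.
SPBC31A8.02: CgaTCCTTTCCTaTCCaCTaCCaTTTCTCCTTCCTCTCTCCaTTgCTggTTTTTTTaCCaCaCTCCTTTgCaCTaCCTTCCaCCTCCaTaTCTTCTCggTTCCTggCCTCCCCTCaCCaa
Whether that composition affects the recovery of tags was not tested.

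The remaining non-wtf pseudogenes of the rest were near or above the level of a typical gene. SPCC18B5.02c, a cinnamoyl-CoA reductase pseudogene, had 1.42 and 1.46 tags per nt of H3, 2.27 and 2.21 of H3K14ac, and 2.11 and 2.16 of H4ac, a log2 H3K14ac/H3 of 0.63. SPBC18E5.15 and SPCC1450.01c were at 0.59 and 0.58. SPAC23D3.05c, an alcohol dehydrogenase pseudogene, and SPCC663.07c, a short chain dehydrogenase pseudogene, were at 0.02 and 0.03. Of the ratios to H3, both passed the test for H4ac/H3 only, at 0.22 and 0.15. SPCC132.05c was called higher for H3K14ac/H3, at 0.17, but not for H4ac/H3.

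Each pseudogene was also set beside the genes that flank it. Taking the nearest protein-coding gene on each side, the mean log2 H3K14ac/H3 of the neighbours correlated across the 13 near pseudogenes with r = 0.93 and rho = 0.92, and across the other 15 with r = 0.18 and rho = −0.03. For H4ac/H3 r was 0.80 near the ends and 0.34 elsewhere. These are descriptions, since 4 pseudogenes on the right of chromosome II share the same neighbours, as do SPAC212.10 and SPAC212.09c. A pseudogene differed by at least 1.5-fold from its neighbours' mean in 4 of 13 near cases and 10 of 15 others. The largest departures were SPBC31A8.02, 2.596 above its neighbours, SPCC18B5.02c, 1.89 above bfr1 and the mitotic kinase gene wee1, and SPAPB24D3.05c, 1.53 above. Near the ends SPBPB10D8.03 was the farthest below its neighbours, by −1.12 in H3K14ac/H3 and −1.55 in H4ac/H3.

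**Figure D4:**
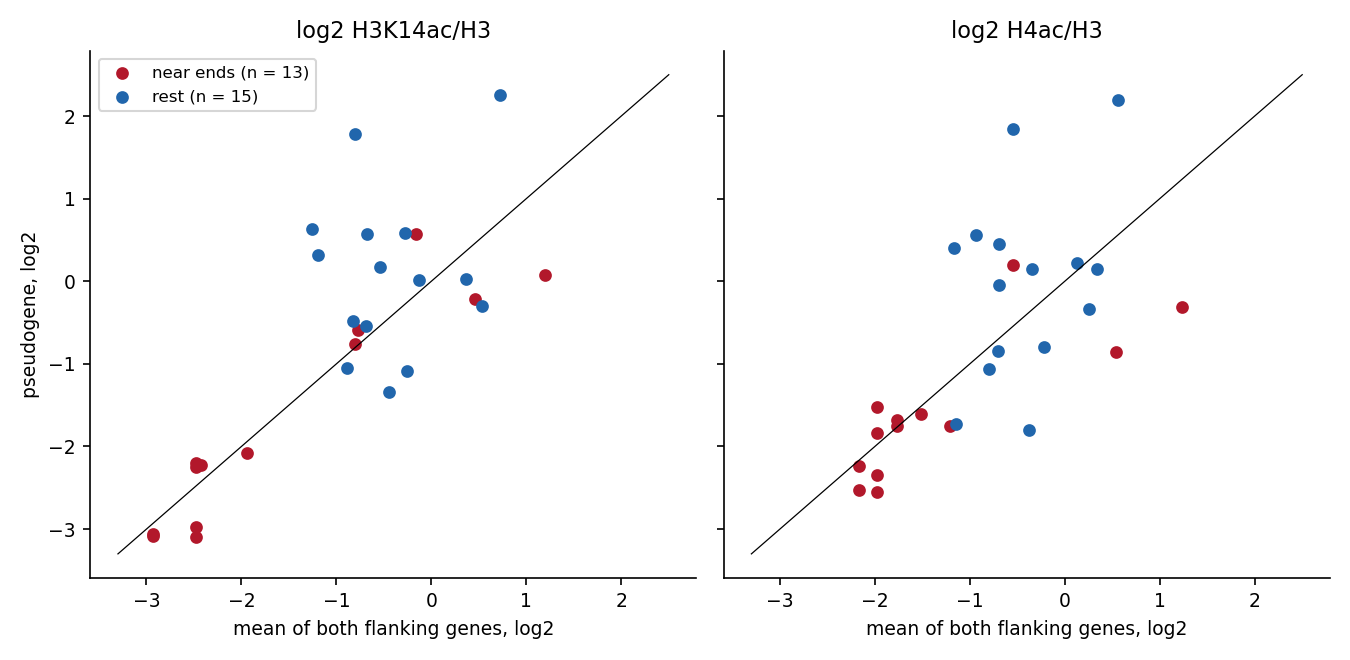
log2 H3K14ac/H3 (left) and log2 H4ac/H3 (right) of each pseudogene against the mean of its nearest protein-coding gene on each side, with a line where both are equal. The 13 near pseudogenes (red) follow the line (r = 0.93, left), and the other 15 (blue) scatter around it (r = 0.18).

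Each pseudogene could be set beside the most similar protein-coding gene in 19 cases, 9 near and 10 elsewhere. In 6 of the near cases that relative lay outside the windows, and the pseudogene was below it in all 6, by −2.64 to −0.82 (H3K14ac/H3) and −2.66 to −1.37 (H4ac/H3). Thus mae2, the relative of SPAC212.09c and SPBCPT2R1.07c, had log2 ratios of −0.46 and −0.19, and mae1, the relative of SPAC212.10 and SPBCPT2R1.10, had −0.50 and 0.32. Each of these 2 pairs consists of copies whose tags cannot be assigned to either. The malic enzyme pair also matched SPAC750.08c, a gene within the windows, at 100% identity over only 687 nt. The relative of SPAC212.07c lay 30.6 kb from an end of chromosome III. SPBC1348.11 was below mfs2, a transporter gene at 71.3% identity, which was at 0.06 and 0.25. Elsewhere 5 of 10 pseudogenes were below their relative and 5 above, with a median difference of −0.02 for H3K14ac/H3. The relatives differ from the pseudogenes in position, in sequence and in being intact, and these cannot be told apart here.

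**Figure D5:**
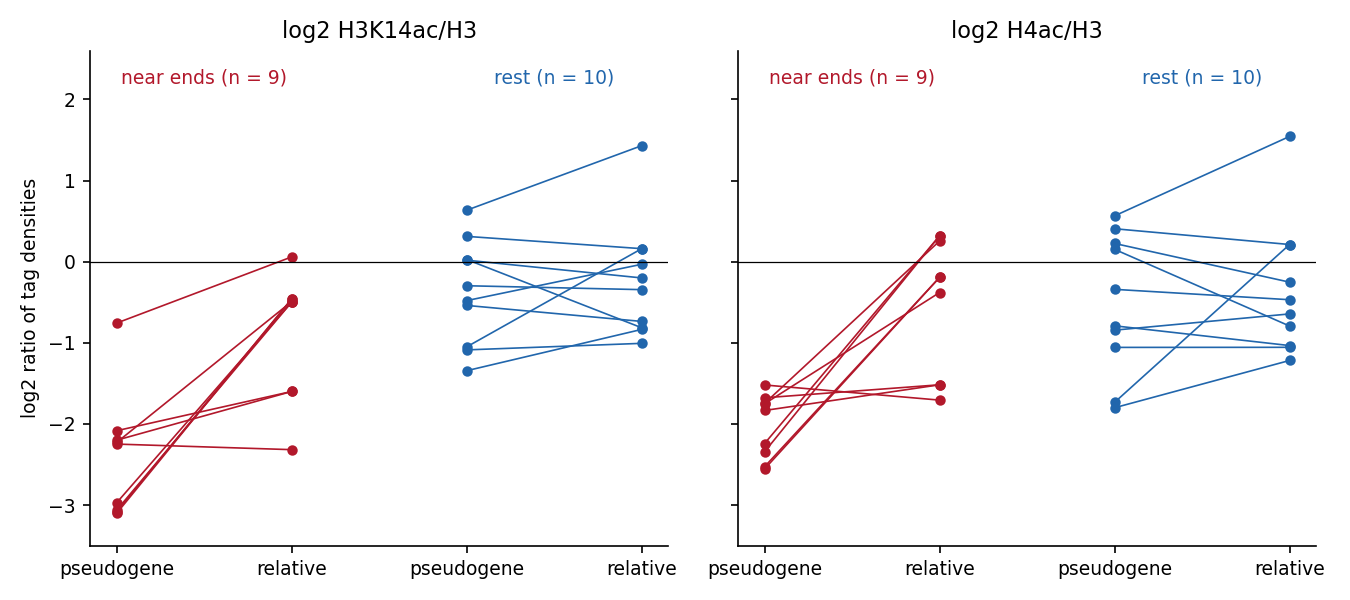
log2 H3K14ac/H3 (left) and log2 H4ac/H3 (right) of 19 pseudogenes, each joined by a line to its most similar protein-coding gene, with 9 near pairs in red and 10 other pairs in blue. 8 of the 9 near pseudogenes lie below their relative in each panel, and the 10 others go either way.

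The pseudogenes also differed in what overlapped them. Of the 8 outer pseudogenes, 2 overlapped another listed feature, against all 5 inner ones and 13 of the 15 others. Most of these were noncoding: XUTs (transcripts that accumulate when the cytoplasmic exonuclease Exo2 is lost) overlapped 6 near pseudogenes and 11 others, and an antisense noncoding RNA gene overlapped 1 and 6. ChIP tags carry no strand, so the density of a pseudogene and of an overlapping transcript unit cannot be told apart. The 13 pseudogenes of the rest with an overlap had a median log2 H3K14ac/H3 of 0.03, the 7 near ones −0.60, and the 6 near ones with none −2.61, all of the latter in the outer set. The study defined XUTs from uniquely mapped reads. Of the near pseudogenes, 1 of 7 with under 10% unique words overlapped a feature, against all 6 on unique sequence. Whether repeated sequence limits the features listed there was not tested.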

How the data were processed

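The authors mapped single-end 50-nt reads uniquely with Bowtie2 to ASM294v2 and deposited, for every feature and library, a signal: its density of tags per nt. Values times length were whole multiples of a constant in each library (100% within 0.1 of a tag). Dividing by it gave 14014219 to 15214393 tags over genes per library before scaling by the authors. The 3 pooled columns, equal to the sum of both replicates, were not used, and 0 per-sample columns lacked a sample. Positions were read in RefSeq ASM294v3, in which 5113 of 5119 first exons begin with ATG, and 20 of the 28 pseudogenes have the same start and end there.

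Here log2(density + 0.01) was fitted across 9109 features (at least 0.05 tags per nt in 2 libraries, coding exons and repeats left out) with limma 3.58.1 and Benjamini-Hochberg adjustment, tested on simulated data. Near and other pseudogenes were compared by medians, with no test across pseudogenes. Relatives were found with BLAST+ 2.17.0. Named pseudogenes were the 4 lowest and 4 highest of each group, those called against their group's median, those with a 1.5-fold difference between H3K14ac and H4ac, and those nearest the window's edge. The members and lists were chosen with earlier results of these data known.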

Additional observations from a re-analysis of the deposited data

How the results depend on the processing

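Of 84 pseudogene ratios, 76 kept their direction and call under every alternative fit. The calls that changed belonged to SPBPB10D8.03, SPBC31A8.02, SPBC18E5.15, SPBCPT2R1.05c, SPAC2E12.05, SPCC18B5.02c and SPCC1450.01c. Between antibodies, the differences of replicate 1 from replicate 2 correlated by −0.07, −0.02 and 0.08 over all features. Over the 28 pseudogenes these correlations were −0.37, 0.39 and −0.25, so whether replicate numbers pair the libraries is not settled. A fit with the replicate block gave 8 higher and 17 lower calls in H3K14ac/H3, 9 and 18 in H4ac/H3, and 12 and 11 in H3K14ac/H4ac. Without it the calls were 9 and 17, 9 and 18, and 12 and 11. Requiring 1.5-fold left 4 higher calls in H3K14ac/H3, 2 in H4ac/H3, and 4 higher and 3 lower in H3K14ac/H4ac. Between replicates the log2 difference had an SD of 0.12, 0.12 and 0.11 for H3, H3K14ac and H4ac, and 0.0695, 0.105 and 0.0951 with a pseudocount of 0.1.

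The near minus rest difference in log2 H3 density, 0.54, was 0.063 with at least 80% unique words, 0.075 with at least 200 nt, 3.04 without overlapping pseudogenes (2 left in the rest), 0.74 with a window of 50 kb, 0.82 without chromosome III and 0.77 for means. That of H3K14ac/H3, −2.23, was −0.78, −2.83 and −2.65 for unique, non-overlapping and chromosome III, −1.99 with a pseudocount of 0.1, −1.79 for means and −2.57 without the wtf pseudogenes, an alternative chosen after seeing the data, as were counting chromosome III ends as near, keeping repeated entries and fitting the 3 chromosomes alone. That of H4ac/H3, −1.90, was −1.42, −2.06 and −2.06 for the same, −1.72 with a pseudocount of 0.1, −1.79 with 50 kb and −1.56 for means. That of H3K14ac/H4ac, −0.48, reversed to 0.46 with at least 80% unique words and was −0.55 with 200 nt, −0.79 without overlaps, −0.76 with 50 kb and −0.23 for means. Leaving out each library in turn gave 0.49 to 0.57, −2.31 to −2.18, −1.92 to −1.80 and −0.60 to −0.41 for these 4, and 7 to 9 higher calls for H3K14ac/H3. The causes were not tested. Each antibody had 2 libraries, and low counts limit SPBC31A8.02.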

Other observations

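The wtf family as a whole, 25 copies with 5 listed as pseudogenes, had H3K14ac above H4ac in 23 copies, with a median log2 H3K14ac/H4ac of 0.31, against 0.01 over all features. The pseudogene copies ran from −0.09 to 0.68 and the gene copies from −0.05 to 0.61, so that the ranges overlapped nearly throughout. The copies listed as genes include wtf6 and wtf8, annotated as frameshifted, and wtf17, annotated as lacking its first methionine. The listing therefore does not separate broken from intact copies. wtf12, listed as a gene, was the highest of the family for H3K14ac/H3, at 1.195, and wtf2, a pseudogene, the lowest, at −1.34.

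Noncoding units around SPBC31A8.02 varied in H3. On its left XUT0252 had 0.0851 tags per nt of H3, SPNCRNA.1424 had 0.23, SPNCRNA.1425 had 0.39 and SPNCRNA.1423 had 0.56, while novelncTU_390 on its right had 1.13 and the gene but2 0.67.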
